A study of Mus musculus with 6 samples.

Results

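The collagen chains of 393P cells were examined across 6 RNA sequencing samples. 393P is an epithelial line from a murine lung adenocarcinoma (LUAD) of the KP model, on a C57BL/6 background, and it undergoes epithelial-mesenchymal transition (EMT) when the transcription factor ZEB1 is expressed ectopically. Here 393P_ZEB1 names the 3 samples of cells transfected with a ZEB1 expression vector, 393P_vector the 3 samples transfected with the empty vector, and replicates are numbered as in the labels. Total RNA of cells grown in RPMI-1640 with fetal calf serum was sequenced on the SOLiD platform. The labels do not say whether the 3 samples of a group came from separate transfections or cultures, so the p-values measure the spread between these samples, which may be technical, and an effect of ZEB1 cannot be told apart from other differences between the transfected lines. The members are all features whose symbol is Col, a type number, the letter a and a chain number. There were 43 of them among 24214 features, 11 in the fibrillar class, 8 in the basement membrane class (types IV, XV and XVIII) and 24 in the other classes.

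Collagens are secreted proteins in which 3 chains wind into a helix. Fibrillar collagens assemble into banded fibrils, type IV chains form the sheet-like network of basement membranes on which epithelia rest, and the remaining types link, coat or anchor these structures or span the cell membrane. Chains combine only in set partnerships, so the level of each partner bears on which trimer a cell can make. Loss of epithelial adhesion and a change in matrix genes are textbook features of EMT, in which ZEB1 acts as a repressor of epithelial genes.

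Total counts ranged from 54442450 to 79158012 per sample, and 3 counts, the floor used here, equalled 0.0361 to 0.0561 CPM (counts scaled to the normalized library size). Zeb1 rose from 21.5 ± 0.435 to 51.7 ± 3.01 CPM (SD, n = 3), and Cdh1, the epithelial cadherin, fell from 162 ± 61.1 to 9.51 ± 0.718 CPM. Zeb1 lies on chromosome 18, whose tested genes had a median log2 fold change of 0.64. Its own log2 fold change was 1.26, or 0.63 relative to that median. Vim, a mesenchymal filament protein, rose from 5508 ± 335 to 7330 ± 493 CPM, with an adjusted p of 0.0256 (edgeR) that reached 0.1 when 1 sample was left out. Of 7 epithelial markers, 6 were lower in 393P_ZEB1 cells, and their summed level was 4638 to 5300 CPM against 2746 to 3042 CPM. Of 6 lung lineage markers, 5 including the surfactant genes Sftpc and Sftpb were too low to be tested. The other, Foxj1, fell from 2.79 ± 0.165 to 0.186 ± 0.0877 CPM (log2 fold change -3.89, adjusted p = 7.35e-05, edgeR). The 9 fibroblast markers summed to 2.11 to 2.6 CPM in 393P_vector and 1.3 to 1.89 CPM in 393P_ZEB1 samples, with Dcn, Lum and Dpt at 0 to 4 counts in every sample. Of the 3 fibroblast markers tested, Pdgfra was lower (log2 fold change -2.01), Pdgfrb was higher (1.18) and the other did not pass. Pdgfrb also lies on chromosome 18 and changed by 0.55 relative to its median. The 4 endothelial, 5 leukocyte and 5 smooth muscle markers summed to at most 2.46, 3.62 and 9.79 CPM, and the endothelial and smooth muscle sums were lower in all 393P_ZEB1 samples. Any part of these cell types in the collagen levels was not tested. The sample labelled 393P_vector replicate 3 stood apart. Its CPM differed at least 2-fold from replicates 1 and 2 for 6.64% and 7.36% of genes, against 0.129% between those 2 and 0.208% to 0.399% between 393P_ZEB1 replicates, and results that rest on it are given with and without it.

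The collagen chains did not move as a block. Col3a1, Col24a1, Col15a1, Col4a5 and Col12a1 rose in 393P_ZEB1 cells, by 0.74 to 3.75 on the log2 scale. Col11a1, Col4a6, Col6a5, Col6a1, Col7a1, Col8a1, Col17a1, Col18a1, Col6a3 and Col6a2 were lower, with log2 fold changes from -4.51 to -0.76. Of the 43 chains, 32 passed the filter on low counts and were tested, which left 5 higher, 10 lower and 17 that did not pass (edgeR quasi-likelihood test, adjusted p below 0.05). Among all 13892 genes tested, 18.3% were higher and 19.3% were lower, so the share of collagen chains called higher, 15.6%, lay near the background and the share called lower, 31.2%, above it, a difference for which no test was run. The median log2 fold change of the 32 chains was -0.38, against -0.02 over all genes tested. The 3 samples of each group did not overlap for 16 of the 32 chains, or 50.0%, while the same held for 52.8% of all genes tested, so separation of the groups was no more frequent among collagens. Without 393P_vector replicate 3, the chains called were 5 higher and 18 lower of 34 tested, and 53.0% of all genes were called.

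**Figure D1:**
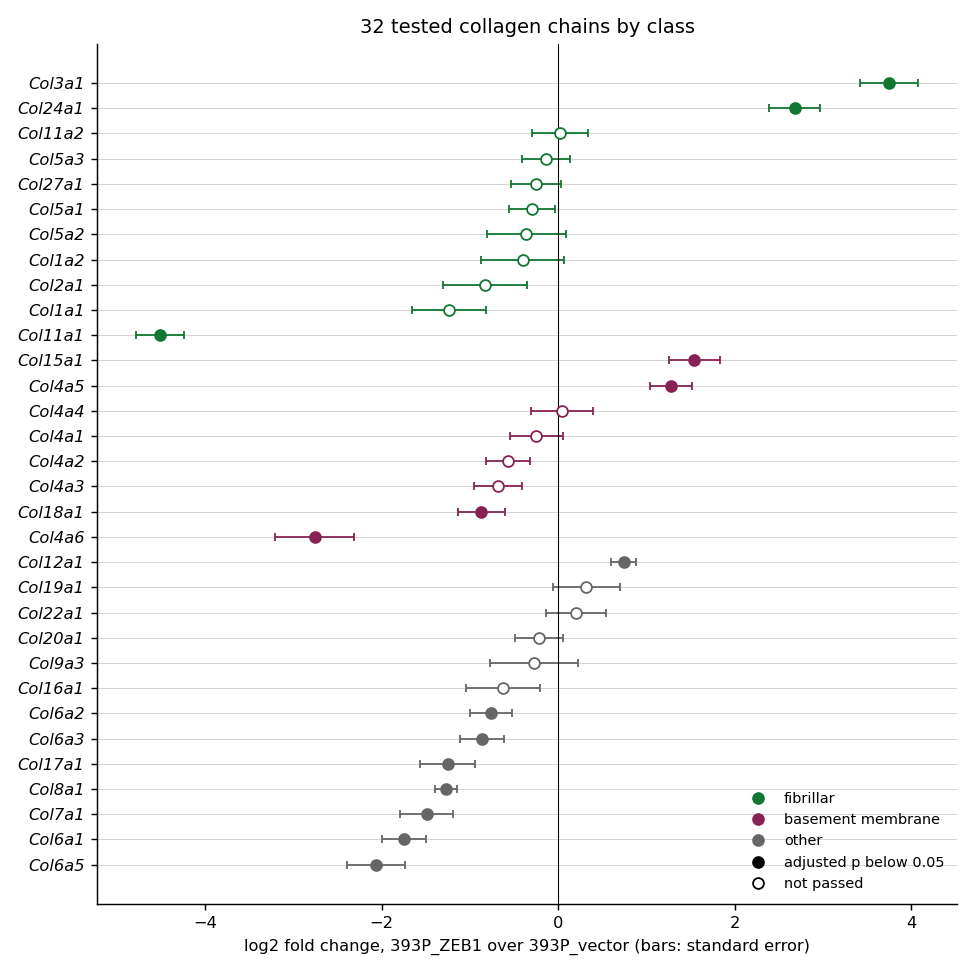
Log2 fold change of the 32 tested collagen chains, 393P_ZEB1 over 393P_vector, by class (n = 3 per group). Points are edgeR estimates, bars are standard errors, and filled points have an adjusted p below 0.05. Most fibrillar points are open, while 7 of the 13 tested chains outside the fibrillar and basement membrane classes are filled and left of 0.

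The counts are given by class as a description, against 18.3% higher and 19.3% lower among all genes tested, and no test compared the classes. All 11 fibrillar chains were tested, of which 2 were higher, 1 was lower and 8 did not pass, with 18.2% higher, 9.09% lower and a median log2 fold change of -0.30. Of the 8 basement membrane chains, all tested, 2 were higher and 2 lower, or 25% each way, with a median of -0.41. Of the 24 other chains, 13 were tested, and 1 (7.69%) was higher and 7 (53.8%) were lower, with a median of -0.76. Without 393P_vector replicate 3 the lower calls became 4 of 11 fibrillar, 5 of 8 basement membrane and 9 of 15 other chains. The higher calls stayed at 2, 2 and 1. In that fit more genes of all kinds were called, with 3700 higher and 3776 lower of 14106 tested. Moving Col7a1 and Col17a1, both chains of the epithelial basement membrane zone, into the basement membrane class gave that class 4 lower calls.

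The 11 chains under the filter were Col9a1, Col9a2, Col6a4, Col6a6, Col8a2, Col10a1, Col13a1, Col14a1, Col23a1, Col25a1 and Col28a1. They comprise FACIT, beaded-filament, short-chain and membrane-spanning chains and the type XXVIII chain. Their highest group mean was 0.243 CPM, that of Col8a2 in 393P_vector cells. Col8a2 had 0.424, 0.221 and 0.0843 CPM over 393P_vector replicates 1 to 3 and 0.0748 to 0.115 CPM in 393P_ZEB1 samples, so the groups overlapped through replicate 3. A further 11 chains were tested below 1 CPM in both groups and did not pass, among them Col1a1, Col1a2 and Col2a1. In all, 17 chains reached 1 CPM in a group mean.

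Per kilobase of exon, basement membrane chains made up most of the collagen RNA in all 6 samples. Their share of the summed CPM per kb in 393P_vector replicates 1 to 3 was 83.9%, 84.5% and 78.2%, and 393P_ZEB1 replicates 1 to 3 had 86.7%, 86.0% and 86.9%. Col4a1 led with group means of 142 CPM per kb in controls and 119 in 393P_ZEB1 cells, followed by Col18a1 with 122 and 67.0 and Col4a2 with 87.0 and 58.5. Next came Col8a1, at 32.6 and 13.5 CPM per kb, and Col5a1, at 22.9 and 18.6, which changed places between the groups. The group means of Col1a1, a type I chain, were 0.201 and 0.0844 CPM per kb. Fibrillar chains held 5.61% to 7.13%. The other chains held 10.3%, 9.7% and 16.2% in 393P_vector and 7.22%, 6.86% and 6.24% in 393P_ZEB1 samples, without overlap between the groups.

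**Figure D2:**
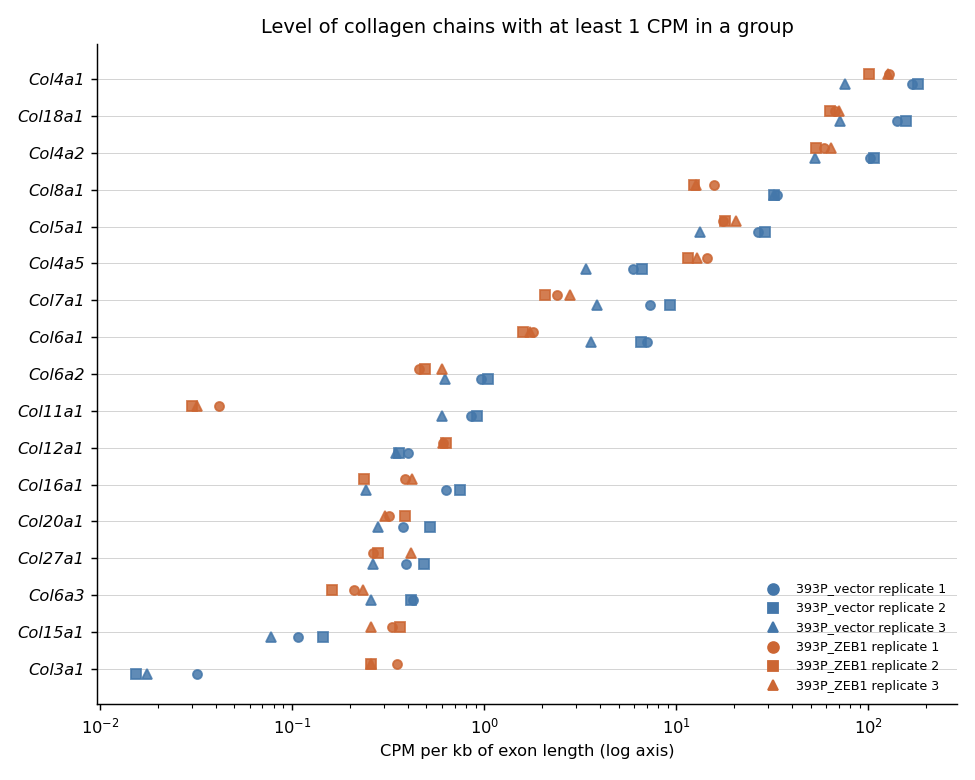
Level of the 17 collagen chains with a group mean of at least 1 CPM, in CPM per kb of exon length on a log axis, 1 point per sample. Col4a1, Col18a1 and Col4a2 lie highest. The 393P_vector replicate 3 triangle is the lowest control point for most abundant chains, but lies close to the other controls for Col8a1 and Col12a1.

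The summed level of the classes showed where a single control sample decided the picture. Fibrillar chains summed to 235, 254 and 119 CPM over the 393P_vector replicates 1 to 3, against 154, 156 and 177 CPM over the 393P_ZEB1 replicates. Most of this was Col5a1, with group means of 191 and 155 CPM within class means of 203 and 163 CPM. Basement membrane chains summed to 2597, 2816 and 1264 CPM against 1696, 1445 and 1730 CPM. Most of that was Col4a1, Col18a1 and Col4a2, at 930, 704 and 555 CPM within a control mean of 2226 CPM. These 2 sums thus largely repeat the values of a few chains. In both classes the 393P_ZEB1 samples lay between the third control and the other controls, so the groups overlapped. The other chains summed to 286, 297 and 228 CPM against 126, 104 and 114 CPM, and here all controls lay above all 393P_ZEB1 samples (log2 ratio of the means -1.24). Most of that was Col8a1, with group means of 167 and 69.2 CPM, and Col7a1, with 61.6 and 21.9 CPM. The class means were 270 and 114 CPM, so this sum too largely repeats the values of a few chains. The log2 ratios of the means were -0.32 for the fibrillar and -0.45 for the basement membrane class, and without 393P_vector replicate 3 they were -0.59 and -0.74. Fewer reads from a gene may reflect fewer cells that express it or less RNA per cell, which bulk samples cannot tell apart.

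**Figure D3:**
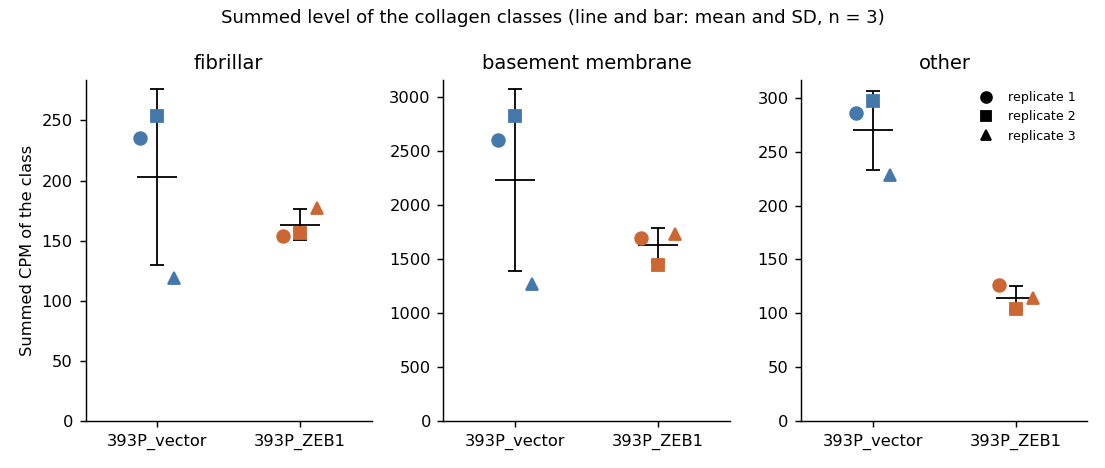
Summed CPM of each collagen class in each sample, with the mean and SD of each group (n = 3) as a line and bar. Axes start at 0 and differ between panels. The groups separate in the panel of other chains, at 228 to 297 against 104 to 126 CPM, and overlap in the fibrillar and basement membrane panels. Most of the sum of other chains is Col8a1 and Col7a1.

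Partner chains of type IV collagen moved unequally. Its 6 genes lie in 3 head-to-head pairs, in which both genes start close together and are read in opposite directions. Log2 fold changes are given ± their standard error. Col4a5 rose while its neighbour Col4a6 fell, the only one of the pairs with a call for either gene when all 6 samples were used.

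Col4a5 (chromosome X, 141475419 to 141689235 on GRCm38, plus strand, 53 exons) encodes a chain of the glomerular and of the epithelial type IV networks. Controls had 38.4, 42.5 and 21.9 CPM, in the order of the replicates, and 393P_ZEB1 samples had 93.4, 73.6 and 82.0 CPM. Every 393P_ZEB1 sample lay above every control, with a log2 fold change of 1.28 ± 0.24 (adjusted p = 0.0047, edgeR) and of 1.04 without 393P_vector replicate 3. Col4a6 (chromosome X, 141165403 to 141474076, minus strand), whose chain joins that of Col4a5 in basement membranes of skin and smooth muscle, had 0.777, 1.1 and 0.445 CPM in controls and 0.0935, 0.09 and 0.147 CPM in 393P_ZEB1 samples. That is 37 to 65 counts against 5 to 9 counts, a log2 fold change of -2.76 ± 0.45 (adjusted p = 0.00233, edgeR). Per kb, Col4a5 exceeded Col4a6 by 46.8 ± 6.43 fold (SD, n = 3) in controls and by 811 ± 229 fold in 393P_ZEB1 cells, the latter on few Col4a6 counts. The ratio of Col4a5 to Col4a1 per kb went from 0.039 ± 0.00524 to 0.109 ± 0.00754, and its range in 393P_ZEB1 samples, 0.1 to 0.113, lay above that in controls, 0.0356 to 0.045.

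The annotated genes of this pair are 1342 bases apart. The 250 bases before each start are shown because they lie between neighbours that moved in opposite directions. Both are from RefSeq on GRCm38.p6, 5′ to 3′ on the strand of the gene, and are all in lower case because neither holds the ZEB1-type E-box CAGGTG or its reverse complement CACCTG.
Col4a5, chrX:141475169-141475418, plus strand: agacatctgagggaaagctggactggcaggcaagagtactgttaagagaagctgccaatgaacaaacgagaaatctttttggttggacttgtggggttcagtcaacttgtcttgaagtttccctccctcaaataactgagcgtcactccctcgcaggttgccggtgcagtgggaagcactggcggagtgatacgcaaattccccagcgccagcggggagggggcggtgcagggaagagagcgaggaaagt
Col4a6, chrX:141474077-141474326, minus strand: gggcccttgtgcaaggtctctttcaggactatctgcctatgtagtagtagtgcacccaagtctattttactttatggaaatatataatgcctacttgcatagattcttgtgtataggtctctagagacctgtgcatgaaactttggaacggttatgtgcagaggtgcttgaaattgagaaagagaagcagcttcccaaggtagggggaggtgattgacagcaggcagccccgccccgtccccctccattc
The Col4a5 window had 54.0% G and C with 10 CG pairs, and the Col4a6 window 47.6% with 3. That the letters of the motif are not in these windows says nothing about binding elsewhere in the loci.

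Col4a1 and Col4a2 encode the chains of the type IV trimer found in nearly all basement membranes. Col4a1 (chromosome 8, 11198423 to 11312826, minus strand) had 1100, 1193 and 497 CPM in 393P_vector and 842, 663 and 834 CPM in 393P_ZEB1 samples. Col4a2 (chromosome 8, 11312829 to 11449287, plus strand), with 2 bases between the annotated genes, had 648, 681 and 336 CPM and 372, 342 and 405 CPM. The third control lay below the lowest 393P_ZEB1 sample for both, and neither passed, with log2 fold changes of -0.25 (standard error 0.30, adjusted p = 0.543, edgeR) and -0.57 (standard error 0.25, adjusted p = 0.113). Without that control both were lower, by -0.56 (adjusted p = 0.00173, edgeR) and -0.83 (adjusted p = 2.3e-05). The ratio of Col4a1 to Col4a2 per kb did separate the groups, at 1.65, 1.7 and 1.44 in controls and 2.2, 1.88 and 2.0 in 393P_ZEB1 samples. The counted intervals of these genes do not overlap, although GENCODE models do, where Col4a2 starts 24 bases earlier. Exons of Col4a2 also overlap Gm15419 on the opposite strand. Whether the counting used strand is not given in the sources used here, so reads in that overlap may not come from Col4a2 alone.

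Col4a3 and Col4a4, 71 bases apart on chromosome 1, encode the partners of the Col4a5 chain in the glomerular network and stayed below 1 CPM. Col4a3 had 0.654, 0.884 and 0.578 CPM in controls and 0.505, 0.432 and 0.377 CPM in 393P_ZEB1 samples. These groups did not overlap, but the chain did not pass, at a log2 fold change of -0.68 (adjusted p = 0.0847, edgeR). Col4a4 ranged from 0.361 to 0.795 CPM in controls and from 0.468 to 0.721 CPM in 393P_ZEB1 samples, and its log2 fold change was 0.04 ± 0.35.

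**Figure D4:**
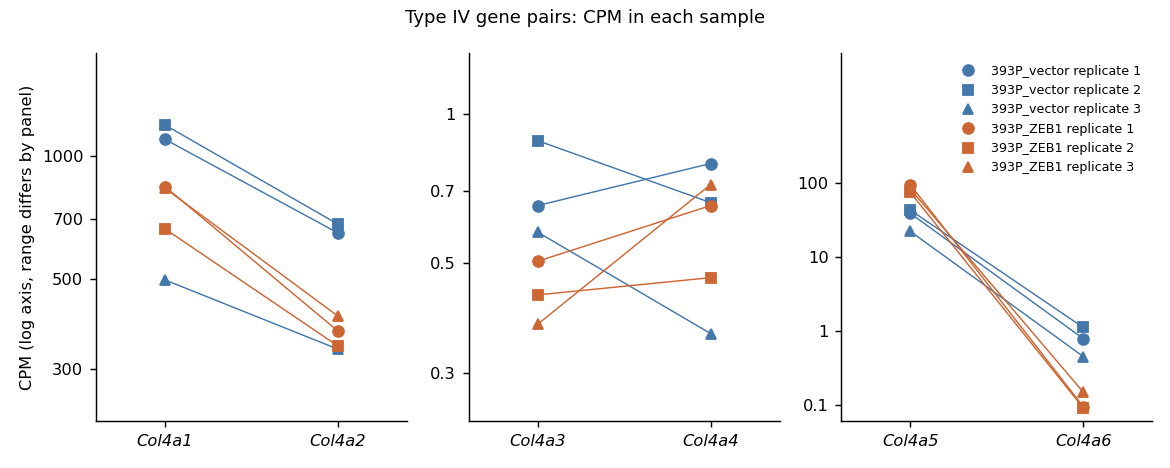
CPM of the type IV chains in each sample on log axes whose range differs by panel, with a line joining the neighbouring genes of a sample. In the panel of Col4a5 and Col4a6 the 393P_ZEB1 lines cross the 393P_vector lines, with Col4a5 at 73.6 to 93.4 against 21.9 to 42.5 CPM and Col4a6 at 0.09 to 0.147 against 0.445 to 1.1 CPM.

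Types XV and XVIII, the multiplexins, are proteoglycan-linked collagens of the basement membrane zone whose ends release endostatin-type fragments. They moved in opposite directions. Col15a1 (chromosome 4, 47208012 to 47313165) had 0.565, 0.765 and 0.409 CPM in controls and 1.74, 1.93 and 1.36 CPM in 393P_ZEB1 samples, without overlap. Its log2 fold change was 1.54 (standard error 0.29, adjusted p = 0.00436, edgeR). That is 32 to 45 counts against 83 to 107 counts, with 1 or 2 of 40 exons above 10 reads in each sample. Exons of Col15a1 also overlap Gm12426 on the opposite strand. Per kb, Col18a1 (chromosome 10, 77052179 to 77166530) was far more abundant, with means of 122 CPM per kb in controls and 67.0 in 393P_ZEB1 cells where Col15a1 had 0.11 and 0.317. Col18a1 had 808, 897 and 407 CPM in controls and 386, 363 and 406 CPM in 393P_ZEB1 samples, so the third control all but touched the highest 393P_ZEB1 sample. It fell by 0.87 on the log2 scale (standard error 0.27, adjusted p = 0.0365, edgeR). That call was lost when any sample other than 393P_vector replicate 3 was left out, and the fall was 1.15 on the log2 scale without replicate 3.

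Among fibrillar collagens, large changes were found in chains of low level, and the abundant chain did not pass. Col5a1 (chromosome 2, 27886425 to 28039510), whose chain nucleates and limits the width of type I fibrils, was the most abundant fibrillar chain per kb. It had 223, 240 and 111 CPM in controls and 146, 149 and 170 CPM in 393P_ZEB1 samples, with the third control below all 393P_ZEB1 samples. Its log2 fold change was -0.30 (standard error 0.26, adjusted p = 0.406, edgeR), and -0.58 without that control (adjusted p = 0.000279). All 66 exons of Col5a1 held more than 10 reads in each of the 6 samples. Some of its exons overlap 2810430I11Rik and Gm13372 on the opposite strand.

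Col11a1 (chromosome 3, 114030540 to 114220326), a minor fibrillar chain of cartilage that also occurs in tumour matrix, fell most among the 32 chains. It had 6.15, 6.63 and 4.35 CPM in controls and 0.299, 0.216 and 0.229 CPM in 393P_ZEB1 samples, or 348 to 390 counts against 12 to 16 counts. The groups were far apart, with a level 22.9 fold higher in controls, a log2 fold change of -4.51 ± 0.27 (adjusted p = 1.11e-05, edgeR). Of its 67 exons, 8, 9 and 8 held more than 10 reads in controls and 0 did in 393P_ZEB1 samples. Among its partner chains, Col11a2, which joins the same trimer, was at 0.645 ± 0.252 CPM and 0.647 ± 0.0226 CPM, and Col2a1 at 0.301 ± 0.157 and 0.165 ± 0.0286 CPM (SD, n = 3), neither past the threshold. Without 393P_vector replicate 3, Col2a1 was lower, with a log2 fold change of -1.20 (adjusted p = 0.0297, edgeR).

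Col3a1 (chromosome 1, 45311538 to 45349706), the chain of the type III homotrimer of distensible tissues, rose most. It had 0.177, 0.085 and 0.0963 CPM in controls and 1.94, 1.42 and 1.42 CPM in 393P_ZEB1 samples. From 5 to 10 counts it went to 79 to 104 counts, a log2 fold change of 3.75 ± 0.33 (adjusted p = 9.56e-05, edgeR). The controls lay close to the floor of 3 counts, so the fold change carries the counting error of few reads, and the annotation places a further gene, Gm47302, over exons of Col3a1 on the same strand. Only 1 of its 51 exons exceeded 10 reads, in 1 sample. Its tail-to-tail neighbour Col5a2, 24624 bases away, had 0.156 to 0.476 CPM in controls and 0.213 to 0.28 CPM in 393P_ZEB1 samples and did not pass (log2 fold change -0.36, standard error 0.45).

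Col24a1 (chromosome 3, 145292472 to 145552005), a fibrillar chain of developing bone, had 0.124, 0.187 and 0.132 CPM in controls and 0.878, 1.12 and 0.868 CPM in 393P_ZEB1 samples. The groups did not overlap, with a log2 fold change of 2.68 ± 0.29 (adjusted p = 0.000246, edgeR). That is 7 to 11 counts against 47 to 62 counts, so the fold change carries the counting error of few reads. Of its 60 exons, 1 held more than 10 reads in each 393P_ZEB1 sample and 0 did in controls. With at least 10 counts required in every sample, Col24a1 could not be tested. Col27a1, a chain of cartilage, had 2.97, 3.69 and 1.99 CPM against 2.0, 2.12 and 3.13 CPM, which overlapped. Type I collagen, the main fibrillar collagen of stroma, was low. Col1a1 had 1.25, 1.09 and 0.457 CPM against 0.467, 0.414 and 0.295 CPM, with a log2 fold change of -1.24 at an adjusted p of 0.0507 (edgeR), and an adjusted p of 0.00104 without 393P_vector replicate 3. Col1a2 ranged from 0.141 to 0.408 CPM over all 6 samples. The remaining fibrillar chain, Col5a3, had 0.481 to 0.833 CPM in controls and 0.557 to 0.617 CPM in 393P_ZEB1 samples.

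Type VI collagen, which forms beaded filaments around cells, was lower in every tested chain. Its trimer contains the chains of Col6a1 and Col6a2 with a further chain from Col6a3, Col6a4, Col6a5 or Col6a6. Of its 6 genes, 4 were tested and all 4 were lower, with a median log2 fold change of -1.30, where 19.3% of all genes tested were lower. The calls of Col6a2 and Col6a3 were each kept in 7 of 14 other fits. The summed level of the 6 genes was 37.0, 35.6 and 20.5 CPM in controls and 11.6, 10.2 and 12 CPM in 393P_ZEB1 samples, without overlap. The groups also did not overlap for 52.8% of all single genes tested. Most of the sum was Col6a1, with group means of 22.6 and 6.72 CPM within means of 31.0 and 11.3 CPM.

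Col6a1 (chromosome 10, 76708792 to 76726044) had 27.8, 25.9 and 14.2 CPM in controls and 7.1, 6.25 and 6.8 CPM in 393P_ZEB1 samples. Its lowest control lay above the highest 393P_ZEB1 sample, and the log2 fold change was -1.75 (standard error 0.25, adjusted p = 0.00131, edgeR). Exons with more than 10 reads numbered 24, 25 and 12 of 35 in controls and 8, 7 and 9 in 393P_ZEB1 samples. Col6a2, 85387 bases away on the same strand, had 3.57, 3.89 and 2.32 CPM and 1.7, 1.82 and 2.24 CPM. Its groups nearly touched, and it fell by 0.76 on the log2 scale (standard error 0.24, adjusted p = 0.0421, edgeR). The ratio of Col6a1 to Col6a2 per kb was 7.31, 6.25 and 5.72 in controls and 3.92, 3.23 and 2.84 in 393P_ZEB1 samples, so the partners fell unequally.

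Col6a3 (chromosome 1, 90766860 to 90843971), the usual partner of both, had 4.61, 4.47 and 2.78 CPM in controls and 2.26, 1.73 and 2.51 CPM in 393P_ZEB1 samples. The fall was 0.86 on the log2 scale (standard error 0.25, adjusted p = 0.0303, edgeR). Like those of Col6a2 and Col18a1, its call was lost without any sample other than 393P_vector replicate 3. Col6a5, an alternative to the Col6a3 chain, had 0.76, 1.02 and 0.963 CPM in controls and 0.299, 0.126 and 0.229 CPM in 393P_ZEB1 samples, with a log2 fold change of -2.06 (adjusted p = 0.00223, edgeR). Its neighbours on chromosome 9, Col6a6 and Col6a4, were not tested, with group means of at most 0.16 CPM. Col6a1, Col6a2 and Col18a1 lie on chromosome 10, whose tested genes had a median log2 fold change of -0.30. Relative to that median they changed by -1.46, -0.46 and -0.57.

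Col7a1 and Col17a1 anchor epithelia to the matrix, Col7a1 as the anchoring fibril below the basement membrane and Col17a1 as a membrane-spanning chain of the hemidesmosome. Both were lower. Col7a1 (chromosome 9, 108953745 to 108984875) had 65.8, 84.0 and 35.0 CPM in controls and 21.6, 18.8 and 25.3 CPM in 393P_ZEB1 samples, without overlap, with a log2 fold change of -1.49 ± 0.30 (adjusted p = 0.00639, edgeR). Exon by exon, 79, 86 and 65 of its 118 exons held more than 10 reads in controls and 20, 19 and 26 in 393P_ZEB1 samples. Col17a1 had 0.707, 0.714 and 0.457 CPM and 0.243, 0.324 and 0.213 CPM. Its log2 fold change was -1.25 (standard error 0.31, adjusted p = 0.0159, edgeR), and its call was lost without 393P_vector replicate 1, 393P_ZEB1 replicate 1 or 393P_ZEB1 replicate 3.

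Col8a1 (chromosome 16, 57624256 to 57754737), a short-chain collagen of the matrix under vascular and corneal endothelium, differed from the other abundant chains in its controls. The 393P_vector replicates 1 to 3 had 171, 164 and 165 CPM and the 393P_ZEB1 samples 80.3, 62.9 and 64.4 CPM, so replicate 3 did not stand apart. The log2 fold change was -1.27 (standard error 0.12, adjusted p = 0.000147, edgeR), and -1.28 without that replicate. Col8a1 alone made up most of the summed CPM of the other class. The median of chromosome 16 was 0.25, and relative to it Col8a1 changed by -1.51. Its promoter window holds a CACCTG, shown in capitals within 40 bases on the strand of the gene, and so does that of Col6a5, the other lower chain with the motif.
Col8a1, chr16:57754738-57754777, minus strand: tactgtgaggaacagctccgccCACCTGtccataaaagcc
Col6a5, chr9:105960644-105960683, minus strand: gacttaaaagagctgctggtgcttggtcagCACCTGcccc
Promoters of 250 bases before to 50 after the start were held by the RefSeq table for 35 of the 43 chains. CAGGTG or CACCTG, which are the same site read on either strand, occurred in 5 of these 35 (14.3%), against 22.6% of 27025 genes with a promoter. The other 3 chains with a match were Col16a1 and Col4a4, which did not pass, and Col9a2, which was not tested. A match is a description of the letters and not of a bound site.

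The fibril-associated collagens (FACITs) coat fibrils and lack long helices of their own. Of 9 FACIT genes 6 were tested, and 1 (16.7%) was higher, against 18.3% of all genes tested. The other 5 did not pass, and the median log2 fold change of the 6 was -0.01. Col12a1 (chromosome 9, 79598991 to 79718678) had 4.65, 4.15 and 4.04 CPM in controls and 7.07, 7.36 and 7.08 CPM in 393P_ZEB1 samples. These groups were narrow and did not overlap, with a log2 fold change of 0.74 ± 0.14 (adjusted p = 0.00445, edgeR), although the call was lost in the test against a fold change of 1.5 (adjusted p = 0.223). Col16a1 had 3.23, 3.86 and 1.25 CPM in controls and 1.98, 1.21 and 2.16 CPM in 393P_ZEB1 samples. It did not pass (log2 fold change -0.63, adjusted p = 0.275, edgeR), and without 393P_vector replicate 3 it was lower (log2 fold change -0.99, adjusted p = 0.00543). Col20a1 had 1.16 to 2.16 CPM in controls and 1.26 to 1.6 CPM in 393P_ZEB1 samples. Col9a3, Col19a1 and Col22a1 had group means of 0.157 to 0.285 CPM and did not pass.

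A feature that many chains share, and that the choice of members did not use, is the target site of the miR-29 family, microRNAs known for repressing collagen mRNAs. The search was added after the values of the chains had been seen and is given as a description. The family has 3 members that share their seed, bases 2 to 8, shown in capitals in the mature sequences from RefSeq.
mmu-miR-29a-3p: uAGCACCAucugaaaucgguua
mmu-miR-29b-3p: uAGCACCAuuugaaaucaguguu
mmu-miR-29c-3p: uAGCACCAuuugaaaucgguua
The complement of the seed, TGGTGCT, was searched on the transcript strand of 3′ UTRs, taking for each gene its longest coding model in GENCODE M21 (GRCm38). Of 40 chains with a 3′ UTR, 22 (55.0%) held it, with 38 sites in all and 10 chains with more than 1. Among all tested genes with a 3′ UTR, 1696 of 11844 (14.3%) held it, at a median 3′ UTR length of 995 bases. The like set of tested chains held it in 21 of 29 (72.4%), at a median of 1110 bases, against 965 for all 40 chains.

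The sites were unevenly spread over the classes. They occurred in 9 of 10 fibrillar chains, all but Col1a2, in 7 of 7 basement membrane chains and in 6 of 23 other chains. No 3′ UTR could be read for Col6a3, Col18a1 and Col11a2. For abundant chains and those that changed most, 1 site each is shown within 30 bases of the transcript strand, site in capitals. Col5a1 held 4 sites, Col4a5 held 3, and Col4a2, Col11a1 and Col7a1 held 2 each, of which the others are not shown.
Col4a1, chr8:11199750-11199779, minus strand: ccgtcacaacaTGGTGCTactcccccccct
Col4a2, chr8:11448348-11448377, plus strand: gaaggccacgtTGGTGCTtatccttctgta
Col5a1, chr2:28038339-28038368, plus strand: ctgaatgtttgTGGTGCTaatctctgtgtg
Col3a1, chr1:45348971-45349000, plus strand: aaatgtctcaaTGGTGCTataataaataaa
Col24a1, chr3:145551199-145551228, plus strand: ttggtgttgctTGGTGCTgtctcccaaaac
Col15a1, chr4:47312489-47312518, plus strand: aatccacatatTGGTGCTagattctgcagg
Col4a5, chrX:141688242-141688271, plus strand: gctcccaccaaTGGTGCTaatatcctctat
Col11a1, chr3:114219072-114219101, plus strand: ttggatttcgtTGGTGCTgtagaaaacaaa
Col4a6, chrX:141166503-141166532, minus strand: ttccatccatcTGGTGCTaacattccattt
Col7a1, chr9:108984584-108984613, plus strand: tgtgctccattTGGTGCTagagttgtgtgt
Col8a1, chr16:57624694-57624723, minus strand: atattctaccaTGGTGCTaatatcagagct
Both the chains that rose and those that fell carried the site. Of the 21 tested chains with a site, 4 were higher and 5 lower, with a median log2 fold change of -0.36, near the 18.3% and 19.3% of all genes tested. Of the 8 tested chains without a site, 1 was higher and 3 lower, with a median of -0.34. The lower chains without a site were Col6a1, Col6a5 and Col17a1, while Col6a2 had 1 site. Seed matches of miR-200b, miR-200c and miR-429, the family that ZEB1 is known to repress, were counted in the same way. CAGTATT occurred in 7 of 40 chains (17.5%) and in 6 of 29 tested chains (20.7%), against 14.5% of all tested genes. The 6 tested chains with a site had a median log2 fold change of -0.98, with 1 higher and 3 lower, against -0.27 for the 23 without. The median 3′ UTR was 2194 bases with and 882 bases without that site, and its part in the difference was not tested.

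Among genes that make, process, bind and degrade collagen, calls were found in both directions. Over these 4 lists, 39 of 51 genes were tested, and 8 were higher and 11 lower, where 18.3% and 19.3% of all genes tested were called. These counts are a description of the lists. Among 20 tested genes of biosynthesis and secretion, 3 were higher and 5 lower. P4ha3, a subunit of a prolyl 4-hydroxylase, rose from 2.11 ± 0.213 to 15.8 ± 0.832 CPM (SD, n = 3), and Lepre1, a prolyl 3-hydroxylase, from 20.8 ± 3.84 to 45.3 ± 2.39 CPM. The related Leprel2 went the other way, from 2.19 ± 0.252 to 0.123 ± 0.0713 CPM (log2 fold change -4.13, adjusted p = 9.56e-05, edgeR). It had 3 to 11 counts in 393P_ZEB1 samples, and Leprel1 did not pass. Plod2, a lysyl hydroxylase, fell from 83.9 ± 9.45 to 53.8 ± 3.8 CPM, and P4ha1 from 150 ± 1.88 to 109 ± 4.29 CPM. P4ha1 lies on chromosome 10, with a median log2 fold change of -0.30. Its own was -0.46, or -0.17 relative to that median. Serpinh1, the collagen chaperone, fell from 393 ± 16.7 to 299 ± 30.5 CPM. This was a change of -0.39 on the log2 scale (adjusted p = 0.0266, edgeR). Colgalt1 and Colgalt2 were not found under those symbols and were not analysed here.

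Of 9 tested genes of procollagen processing and cross-linking, 2 were higher and 3 lower. Pcolce, an enhancer of procollagen cleavage, rose from 91.3 ± 1.9 to 125 ± 14.9 CPM (SD, n = 3). Loxl4, a lysyl oxidase, fell from 68.1 ± 27.5 to 21.1 ± 6.4 CPM, and Bmp1, the procollagen C-proteinase, from 121 ± 24.1 to 77.5 ± 0.658 CPM. Of 7 tested collagen receptors, 2 were higher and 2 lower. Itga1, the integrin chain that favours type IV collagen, rose from 0.299 ± 0.121 to 32 ± 1.15 CPM, a log2 fold change of 6.70 ± 0.27 (adjusted p = 2.16e-06, edgeR). Itga2, the chain that favours fibrillar collagen, rose from 103 ± 14 to 145 ± 3.42 CPM. Both discoidin domain receptors fell, Ddr1 from 112 ± 34.3 to 69.9 ± 1.74 CPM and Ddr2 from 9.55 ± 1.23 to 4.85 ± 0.26 CPM. For Ddr1 the controls had 130, 134 and 72.9 CPM, so replicate 3 nearly touched the 393P_ZEB1 samples at 68.2 to 71.7 CPM, and the log2 fold change was -0.69 with and -0.92 without that replicate. Among 3 tested collagen-degrading proteases, Mmp13, a collagenase, rose from 4.19 ± 0.727 to 90.6 ± 11 CPM, Mmp9 fell from 2.3 ± 0.249 to 0.134 ± 0.0852 CPM, and Mmp14 did not pass. Some calls in these lists depended on single samples. With 1 sample left out, the adjusted p (edgeR) reached 0.135 for Ddr1, 0.0897 for Serpinh1, 0.0716 for Pcolce, 0.0585 for Bmp1 and 0.0549 for Itga2. With the replicate number as a block it was 0.0542 for Ddr1 and 0.0507 for Serpinh1.

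The place of 393P_vector replicate 3 in these results differed between chains. Without it, 7 more of the 32 chains passed, and all 7 were lower: Col4a3, Col5a1, Col16a1, Col4a1, Col4a2, Col1a1 and Col2a1. The same 7 chains passed in a fit by limma voom with sample weights, and all 15 calls were kept there. Such weights can lower the part of a sample that stands apart, so the voom fit is not a separate check. Both fits called more genes of all kinds. Over all genes, 2539 were higher and 2679 lower with all samples in edgeR, 3700 and 3776 without replicate 3, and 3971 and 4100 with voom. Without replicate 3, Col8a2 and Col25a1 also entered the test, and Col8a2 was lower. The 15 chains called with all samples were then called in the same direction, with log2 fold changes of 0.70 to 3.59 for the higher and -4.68 to -0.95 for the lower chains. Its part in the levels of the abundant chains was not tested further. Of the 15 calls, 10 were kept in each of the fits in which the chain could be tested: Col3a1, Col24a1, Col15a1, Col4a5, Col11a1, Col4a6, Col6a5, Col6a1, Col7a1 and Col8a1.

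**Figure D5:**
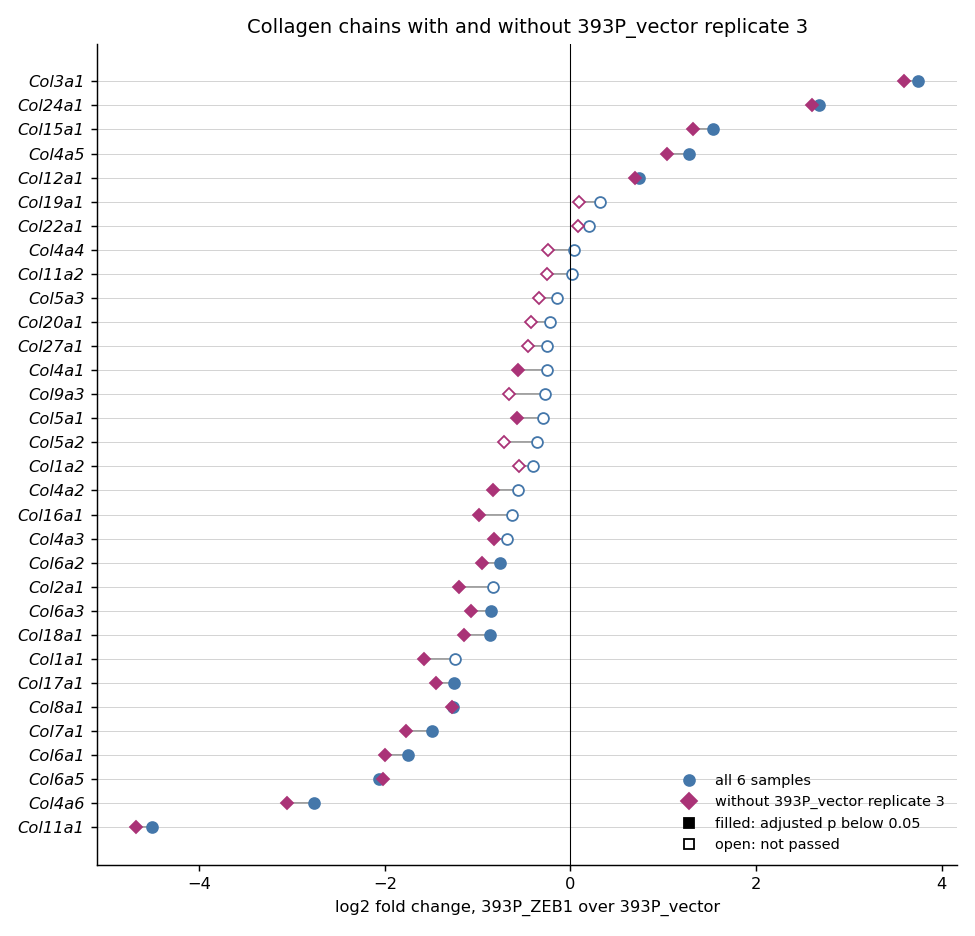
Log2 fold change of each tested collagen chain with all 6 samples (circles) and without 393P_vector replicate 3 (diamonds), filled where the adjusted p was below 0.05. Diamonds lie left of circles for nearly all chains, and 7 chains have a filled diamond beside an open circle.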

How the data were processed

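Total RNA from 3 393P_vector and 3 393P_ZEB1 samples was sequenced on the SOLiD platform. For each sample the authors deposited an unnormalized read count per RefSeq feature, with GRCm38 coordinates and exon length. The authors also deposited an RPKM, the count scaled by exon length and total reads, which was used only to check that it implied 99.1% to 99.32% of the summed counts, and the number of exons with more than 10 reads, which the file headers name. The aligner, the counting program and its use of strand are not given in the sources used here.

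Counts were analysed in R 4.3.3 with edgeR 4.0.16 over the whole table. Genes were kept by filterByExpr with a minimum count of 10, which left 13892, and libraries were normalized by TMM (factors 0.9789 to 1.0499). The quasi-likelihood fit was robust, with a term for condition only. The biological coefficient of variation was 0.184. The Benjamini-Hochberg adjustment covered all genes tested, with a threshold of 0.05, and the standard error is the log2 fold change over the square root of F. An exact permutation test of 3 samples against 3 cannot give a p below 0.1. CPM used the TMM-normalized library sizes, and CPM per kb divided them by exon length. Totals were 57844355, 59735316 and 79158012 counts in 393P_vector and 54442450, 55159915 and 61251074 in 393P_ZEB1 replicates 1 to 3. Levels near 3 counts are limited by counting error.

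The members, classes and gene lists were chosen with earlier results of these data known. Chains with a group mean of at least 1 CPM, and their partners, are named with values, and the others are listed. From each pathway list the 2 largest increases and decreases past the threshold with a mean of at least 5 CPM are named. Serpinh1, Leprel1, Leprel2, Mmp9, Mmp14, Pdgfra, Pdgfrb, Foxj1 and the chains below 1 CPM given with values were named after their values were seen. The alternatives were DESeq2 1.42.0 (size factors and Wald test), limma 3.58.1 with voom and sample weights, other filters and thresholds, a replicate block, and each sample left out. Scripts were tested on simulated data. Promoters and microRNAs came from RefSeq (GRCm38.p6) and 3′ UTRs from GENCODE M21. Protein sequences were not analysed here.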

Additional observations from a re-analysis of the deposited data

How the results depend on the processing

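Over 441 refits of single chains, 398 kept their direction and side of the threshold, 26 lost and 17 gained a call, and 0 reversed. With limma voom and sample weights, all genes gave 3971 higher and 4100 lower calls, and lower chains numbered 17 in all, 4 fibrillar and 5 basement membrane, with 13 pathway genes higher. In the test against a fold change of 1.5, all genes gave 1081 and 1118, lower chains numbered 6, basement membrane 1 and other 4, higher other chains 0, and pathway genes 5 higher and 6 lower. At an adjusted p below 0.01, all genes gave 1584 and 1545, lower chains numbered 6, basement membrane 1 and other 4, with 5 pathway genes higher. With at least 10 counts in every sample, 25 chains were tested, and higher chains numbered 3, higher fibrillar 0 and lower basement membrane 1, with 7 pathway genes lower. This filter removes chains that are low in a group, such as Col3a1 and Col24a1. Lower fibrillar chains numbered 2 with the DESeq2 Wald test and 2 without a filter, since Col1a1 was gained. With Col7a1 and Col17a1 as basement membrane, that class had 4 lower chains.

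Leaving out each sample in turn gave 1861 to 3700 higher and 1784 to 3776 lower genes, 5 higher and 6 to 18 lower chains, 1 to 4 lower fibrillar, 1 to 5 lower basement membrane, 4 to 9 lower other chains, and 6 to 12 higher and 8 to 13 lower pathway genes. The highest lower counts came without 393P_vector replicate 3. A fit with the replicate number as a block gave 5 higher and 8 lower chains, with 2 lower fibrillar and 1 lower basement membrane chains. The block lost Col6a3, Col6a2 and Col18a1 and gained Col1a1. Deviations from the group mean correlated at r = 0.195, -0.126 and -0.0276 for samples of equal number, so the numbers were not taken to pair the samples. The cause of these changes was not tested. Depth limits chains below about 0.1 CPM.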
